A study of Mus musculus with 6 samples.

Results

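The G2 and mitosis genes are 38 genes whose products carry a cell from the end of DNA replication through chromosome segregation and cleavage. They were taken by symbol from a fixed list, and all 38 were found among the 17296 genes shared by both deposited tables. They were read in single-cell RNA counts of organoids that form a neural tube in Matrigel from Sox1::eGFP;Bra::mCherry mouse embryonic stem cells, a line with a green reporter for neural and a red one for mesodermal fate. All groups share this 1 line, a start of 3 days in bFGF and activin-A, and then N2B27 medium. The groups are non-elongated organoids at day 6 (1 library), elongated organoids at day 6 (2 libraries, replicates 1 and 2, from different batches), and elongated organoids at day 7, day 8 and day 10 (1 library each). Each condition pooled 100 organoids, organoids kept past day 6 were moved to fresh Matrigel, and nothing in the labels says that the day 6 duplicates are independent cultures. The p-values of comparisons between groups take their spread from these 2 libraries, with each gene's estimate drawn towards that of all genes. Those of a slope over day take it from the elongated libraries around a straight line.

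In a dividing cell, cyclin A and cyclin B activate the kinase Cdk1, and the kinases Plk1, Aurka and Aurkb then drive spindle assembly and chromosome attachment. The anaphase promoting complex, with its partner Cdc20 and its ubiquitin conjugating enzyme Ube2c, destroys cyclin B and lets the chromosomes part, after which midzone proteins and cytokinesis motors split the cell. These genes are transcribed late in the cycle, and in the neural tube they mark the ventricular progenitors and are silent in neurons that have left the cycle. Many of their promoters carry a cell cycle homology region, an element bound by the MuvB complexes, often next to CCAAT boxes bound by NF-Y.

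The promoters of Cdk1, Ccnb1, Ccnb2 and Ube2c are printed because they show both elements in front of genes at the core of mitotic entry and exit. RefSeq gives a promoter window for 32 of the 38 genes on build GRCm38.p6, from 250 bases before to 50 bases after the start. The stretches below run from 150 bases before to 20 after the RefSeq start, 5′ to 3′ on the gene's strand. Capitals mark the homology region (TTTGAA or TTTAAA) and the CCAAT box on either strand, so that ATTGG is a CCAAT box and TTCAAA a homology region read from the other strand.
Cdk1: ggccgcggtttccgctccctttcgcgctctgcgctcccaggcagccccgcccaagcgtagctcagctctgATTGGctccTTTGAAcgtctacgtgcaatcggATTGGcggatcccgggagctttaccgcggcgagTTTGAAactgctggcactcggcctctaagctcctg
Ccnb1: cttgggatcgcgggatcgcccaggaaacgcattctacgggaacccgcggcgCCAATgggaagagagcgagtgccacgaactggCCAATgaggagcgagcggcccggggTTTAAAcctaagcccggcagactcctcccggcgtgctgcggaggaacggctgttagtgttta
Ccnb2: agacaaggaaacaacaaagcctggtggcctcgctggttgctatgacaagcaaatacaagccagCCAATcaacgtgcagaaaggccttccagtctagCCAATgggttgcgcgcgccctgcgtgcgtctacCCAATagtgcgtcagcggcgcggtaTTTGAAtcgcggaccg
Ube2c: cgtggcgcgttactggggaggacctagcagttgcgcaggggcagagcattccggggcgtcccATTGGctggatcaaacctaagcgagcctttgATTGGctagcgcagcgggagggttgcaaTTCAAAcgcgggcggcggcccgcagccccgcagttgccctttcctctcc

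The Cdk1 stretch is chr10:69352893-69353062 on the minus strand, and it holds a homology region 71 bases and another 15 bases before the start, with CCAAT boxes 80 and 48 bases before it. The Ccnb1 stretch is chr13:100786467-100786636 on the minus strand, with TTTAAA 42 bases and CCAAT boxes 99 and 67 bases before the start. Ccnb2 (chr9:70421535-70421704, minus strand) has 3 CCAAT boxes at 87, 54 and 21 bases before the start, and its homology region begins 4 bases after it. Ube2c (chr2:164769779-164769948, plus strand) has its homology region 29 bases and its CCAAT boxes 88 and 57 bases before the start. Within the whole 300-base windows, a homology region was found on either strand in 29 of 32 member promoters (90.6%) and in 27.8% of 27025 promoters of all genes. A CCAAT box was found in 26 of 32 (81.2%) and in 37.9% of all, and both elements together in 25 of 32 (78.1%) and in 10.9% of all. The 2 motifs can share at most 1 end base. Between 100 bases before the start and 50 after it, both were found in 22 of 32 member windows (68.8%) and in 3.02% of all. A match is a match of letters and was not tested as a bound site. In the GENCODE M21 annotation of GRCm38, the genes that later results turn on most are Cdk1 (chr10:69335146-69352938, minus strand), Prc1 (chr7:80294450-80316259, plus), Top2a (chr11:98992943-99024189, minus), Mki67 (chr7:135689784-135716361, minus), Racgap1 (chr15:99620496-99651656, minus) and Kif4 (chrX:100625737-100727214, plus).

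The libraries held 2076 to 3677 cells and 74072752 to 152742819 UMIs (unique molecular identifiers, each counting 1 captured RNA molecule). The median cell held 22053 UMIs in the day 10 library, the shallowest, and 59014 in replicate 2 of elongated day 6, and library pairs shared 1 to 4 cell barcodes. Cell classes are the authors' own. Neurons made up 0.585% of cells at day 7, 8.15% at day 8 and 32.0% at day 10, and none were annotated at day 6. The neural progenitor classes made up 35.2% of the non-elongated library, 64.2% and 96.0% of elongated day 6 replicates 1 and 2, and 91.6%, 87.3% and 56.7% at days 7, 8 and 10. The neuron classes carried their markers, whereas at days 8 and 10 the neural crest classes did not stand out by the 6 crest markers used here. Crest cells held a mean of 0.445 crest marker UMIs per 5000 at day 10, progenitors 0.627 and neurons 1.93. At day 8 these means were 0.230, 0.193 and 2.11. Crest cells held more than progenitors at day 7 (0.755 against 0.105) and at day 6 in replicate 2 (0.072 against 0.016). The crest names are the authors'. All 10 neuron markers rose by day 10, and the median neuron held 50 UMIs of them per 5000 UMIs at day 10 against 2 in the median progenitor. Epiblast classes made up 51.0% of the non-elongated library and 27.7% of replicate 1, and no cell elsewhere carried such a name. At day 10 in all cells, 6 of 6 epiblast and 6 of 6 surface ectoderm markers fell, 2 of 6 mesenchyme markers fell, 3 of 6 neural crest markers rose, and of 9 progenitor markers 5 rose and 2 fell (edgeR). Replicate 1 shares its deposited table with the non-elongated library and replicate 2 shares one with days 7, 8 and 10. The duplicates thus differ in table as well as in batch. The table of replicate 2 has no epiblast class, so neural progenitors are not defined alike in the duplicates. Progenitors held a mean of 0.605 epiblast marker UMIs per 5000 in replicate 1 and 1.16 in replicate 2. Values against the day 6 replicate of the same table are given beside the members called in a comparison of days.

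By day 10 several genes of mitotic entry and exit had fallen in the organoid as a whole, and at day 8 the count of members that rose was near the share of all genes. In UMIs summed over all cells, 8 of the 38 members fell at day 10 against elongated day 6 and none rose (edgeR quasi-likelihood test, false discovery rate, FDR, under 0.05, no replicate at day 10). Of all 16379 genes tested 12.3% fell. The members that fell were Kif20a, Cdc20, Cdk1, Aurka, Plk1, Ccnb1, Ccnb2 and Kif2c. The median log2 fold change of the members was -0.44, beside -0.01 over all genes. In a sum over all cells, fewer dividing cells and less of these RNAs per cell cannot be told apart. The neuron share moved with the fall, from 0% to 32.0%, and its part was not tested. At day 8, 4 members rose (Prc1, Kif4, Top2a and Mki67) and none fell, where 6.74% of all genes rose, and the median of the members was 0.24. This count of 4 in 38 is near the share of all genes. The 4 are genes of the central spindle and of chromosome structure, but the central spindle motor gene Kif20a had the lowest day 8 value of the 38 (-0.88, not called). With DESeq2 in place of edgeR, 12 members fell and 1 rose at day 10, where 12.8% of all genes fell. Scaled by library totals alone, which moves the median of all genes at day 10 to 0.24 and their calls from 2302 higher and 2018 lower to 2991 and 1382, 5 fell (Kif20a, Cdc20, Cdk1, Aurka and Plk1) and 2 rose (Prc1 and Racgap1), where 8.44% and 18.3% of all genes did. The 4 calls at day 8 were lost, with adjusted p between 0.0541 and 0.0605 (edgeR), when genes had to reach a minimum count of 100.

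Of the cyclins and their kinase, 3 of 4 fell at day 10. Values are CPM, UMI counts scaled to a common library size with TMM factors, given in the order non-elongated day 6, elongated day 6 replicates 1 and 2, and elongated days 7, 8 and 10. Cdk1, the kinase that starts mitosis, stood at 271, 278, 216, 164, 162 and 94.4 CPM. Every later elongated library lay below both day 6 duplicates. Its log2 fold change at day 10 was -1.39 ± 0.29 (SE, edgeR adjusted p = 0.0136), or -1.19 against the duplicate of its own table. Ccnb1, which encodes cyclin B1, stood at 250.2, 249.7, 171, 156, 172 and 97.1 CPM. Day 8 lay level with replicate 2, and day 10 was the lowest (log2 fold change -1.11 ± 0.32, edgeR adjusted p = 0.0397, -0.81 within its table). Ccna2, the cyclin A gene that acts from S phase into mitosis, stood at 138, 142, 110.0, 113, 137 and 77.9 CPM. It was lowest at day 10 but did not pass the test (-0.69 ± 0.29, edgeR adjusted p = 0.115). Ccnb2, the cyclin B2 gene, fell by 1.06 on the log2 scale (SE 0.29, edgeR adjusted p = 0.0329, -0.89 within its table). The Ccnb1 and Ccnb2 calls were lost under scaling by library totals alone, with edgeR adjusted p of 0.0885 and 0.0773, and that of Ccnb1 also at a minimum count of 100 (0.0543).

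**Figure D1:**
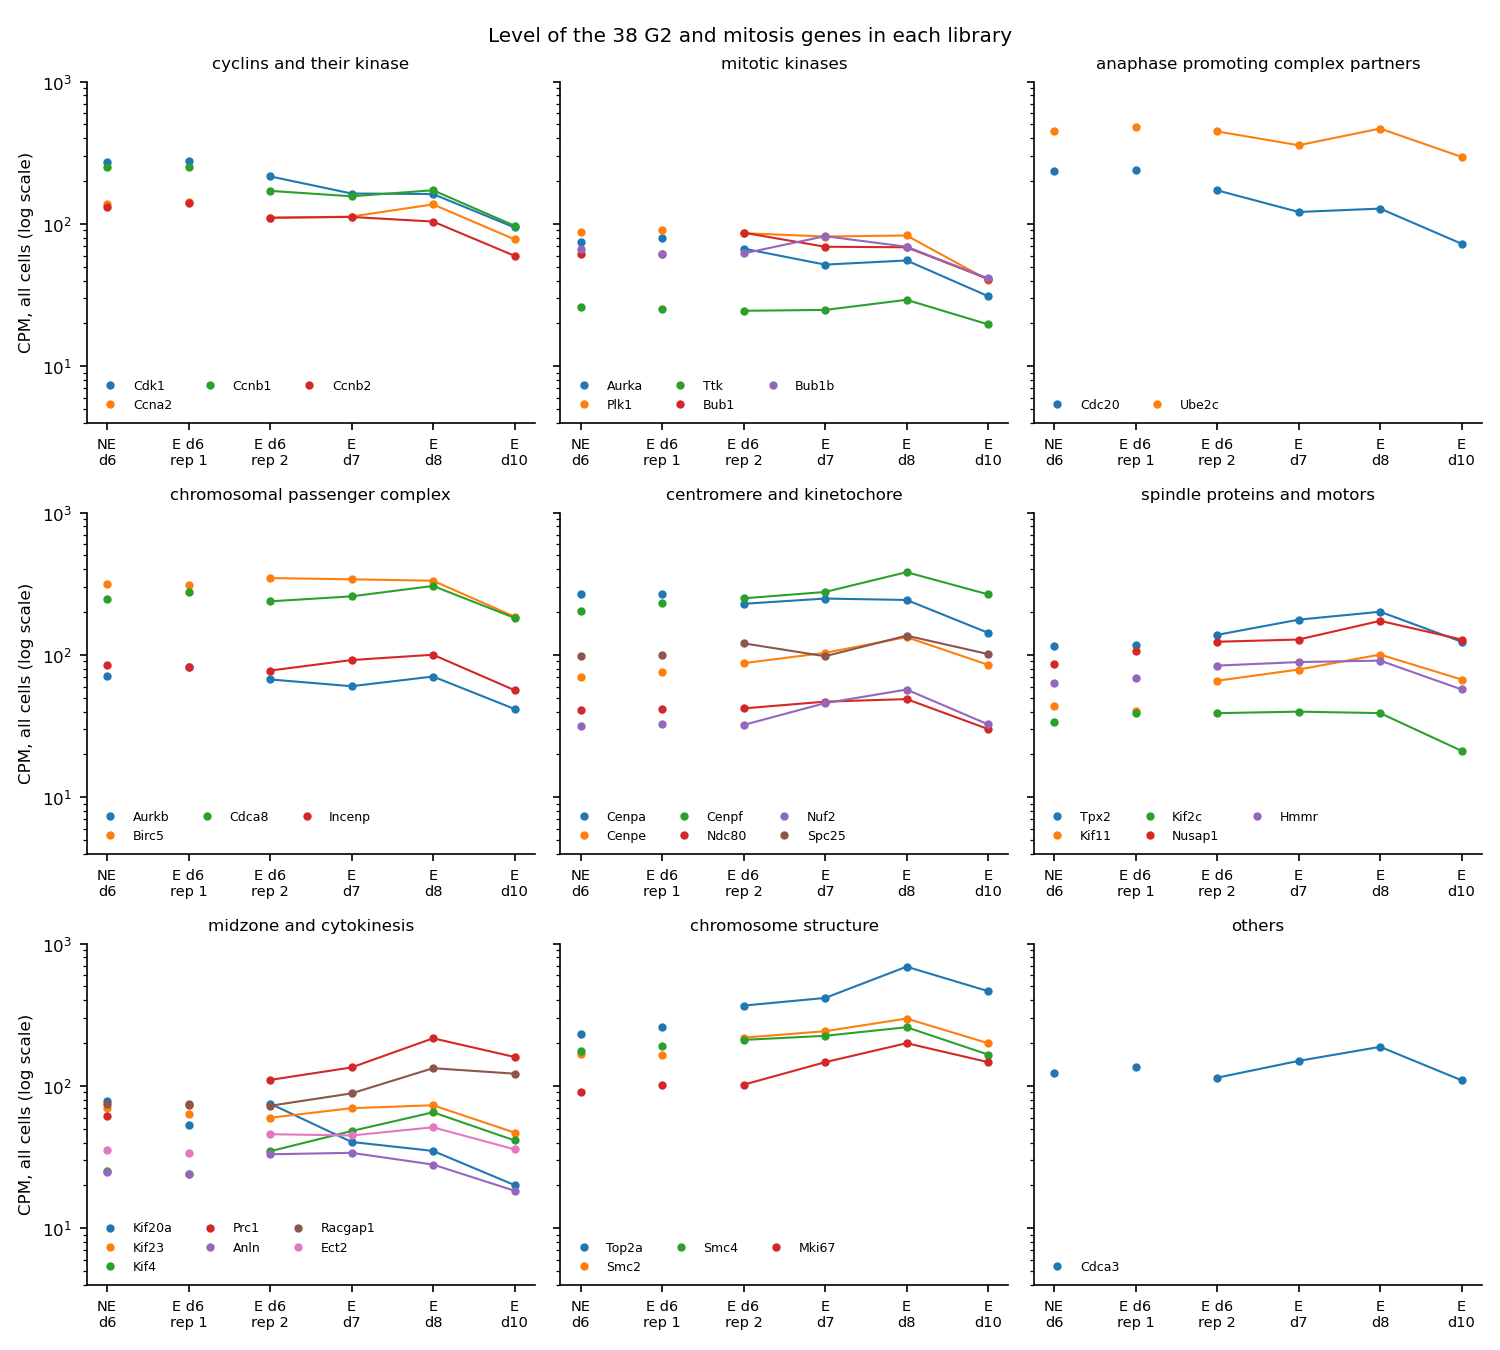
Level of each of the 38 genes in CPM over all cells (log axis) in the 6 libraries, in panels by role, where NE is non-elongated, E elongated and d the day. Each point is 1 library and lines join the 4 libraries of the same deposited table. Cdk1 declines from 278 and 216 CPM in the day 6 duplicates to 94.4 at day 10, while Top2a and Prc1 peak at day 8 (687 and 216 CPM).

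Of the 5 mitotic kinase genes, Plk1 and Aurka fell at day 10. Plk1, which acts in centrosome maturation and mitotic entry, stood at 87.9, 90.9, 86.1, 81.6, 83.0 and 40.4 CPM. Its level was flat from day 6 to day 8 and dropped at day 10, by a log2 fold change of -1.13 ± 0.27 (edgeR adjusted p = 0.0205, -1.09 within its table). Aurka, the centrosome and spindle pole kinase, stood at 74.9, 79.9, 67.1, 51.8, 55.4 and 31.1 CPM. Its values were below both duplicates from day 7 on, and day 10 passed the test (-1.24 ± 0.28, edgeR adjusted p = 0.017, -1.11 within its table). Ttk, the spindle checkpoint kinase Mps1, stood at 26.0, 25.4, 24.6, 24.9, 29.3 and 19.7 CPM and did not pass (-0.34 ± 0.29, edgeR adjusted p = 0.409). The checkpoint kinase genes Bub1 and Bub1b had log2 fold changes of -0.85 and -0.57 at day 10 and were not called.

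The partners of the anaphase promoting complex were lowest at day 10. Cdc20, its activator in mitosis, stood at 234, 239, 172, 121, 128 and 72.6 CPM. All later elongated libraries lay below both duplicates, and the log2 fold change at day 10 was -1.502 ± 0.315 (edgeR adjusted p = 0.0129, -1.25 within its table). Ube2c stood at 446, 480.1, 446, 357, 467 and 295.5 CPM. Its day 10 value was the lowest, with a log2 fold change of -0.65 ± 0.26 that did not pass (edgeR adjusted p = 0.1).

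In the chromosomal passenger complex, which corrects faulty spindle attachments and guides cleavage, no member of 4 was called at day 10. Aurkb, its kinase, stood at 71.3, 82.4, 67.3, 60.3, 70.5 and 41.7 CPM (-0.84 ± 0.28, edgeR adjusted p = 0.061). Cdca8, the subunit known as borealin, stood at 247, 277, 238, 258, 305 and 182 CPM (-0.50 ± 0.26, edgeR adjusted p = 0.199). Both were lowest at day 10, and only Cdca8 was at its highest at day 8. The survivin gene Birc5 and the scaffold gene Incenp had log2 fold changes of -0.82 and -0.50.

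The 6 centromere and kinetochore genes ran from -0.80 to 0.14 at day 10, with none called. Cenpa, the centromeric histone gene, stood at 268.0, 268.4, 229, 249, 243 and 143 CPM, between 229 and 268.4 until day 8 and lowest at day 10 (-0.80 ± 0.27, edgeR adjusted p = 0.0648). Cenpf, a large kinetochore protein gene of G2 cells, stood at 203, 233, 249.6, 277, 381 and 266 CPM. It peaked at day 8 and at day 10 was above both duplicates by less than the test could call (0.14 ± 0.25, edgeR adjusted p = 0.702). Cenpe, Nuf2, Spc25 and Ndc80, which encode a kinetochore motor and subunits of the Ndc80 complex, were each highest at day 8.

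Spindle genes were uneven too. Kif2c, the microtubule depolymerase MCAK, stood at 33.6, 38.9, 39.0, 40.0, 39.0 and 21.2 CPM. It was flat to day 8 and fell at day 10 (-0.88 ± 0.27, edgeR adjusted p = 0.048, -0.88 within its table), a call that was lost without a filter on low counts (0.0541), at a minimum count of 100 (0.0504) and under library totals alone (0.123). Kif11, the motor that pushes spindle poles apart, stood at 43.7, 40.7, 65.9, 79.0, 101 and 67.2 CPM. Day 10 lay level with replicate 2, and it was not called there (0.33 ± 0.33, edgeR adjusted p = 0.485). Tpx2, Nusap1 and Hmmr, spindle assembly factors, ranged from -0.42 to 0.16 at day 10.

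The midzone and cytokinesis genes held the lowest and the highest day 10 value of the 38. Kif20a, a motor that brings passenger proteins to the central spindle, stood at 78.5, 53.3, 75.1, 40.4, 35.0 and 20.1 CPM. It declined from day 7 on and lay at -1.67 ± 0.32 at day 10 (edgeR adjusted p = 0.0094, -1.90 within its table). Prc1, which bundles the microtubules of the same midzone, stood at 61.4, 73.5, 110, 135, 216 and 160 CPM. Its highest value was at day 8 (1.23 ± 0.30, edgeR adjusted p = 0.0361, 0.97 within its table), and day 10 was above both duplicates without passing (0.80 ± 0.31, edgeR adjusted p = 0.0924). Kif4, the motor that works with Prc1, rose at day 8 by 1.15 ± 0.29 on the log2 scale (edgeR adjusted p = 0.0416, 0.91 within its table). That call was lost without a filter on low counts (0.0508). Racgap1, Kif23, Ect2 and Anln, which encode centralspindlin, its exchange factor and the ring protein anillin, had day 10 log2 fold changes of 0.72, -0.40, -0.15 and -0.64, none called.

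All 4 chromosome structure genes were at their highest at day 8, and 2 were called. Top2a, the topoisomerase that untangles sister chromatids, stood at 232, 258, 366, 415, 687 and 463 CPM. Day 8 was above every other library (1.14 ± 0.28, edgeR adjusted p = 0.0382, 0.91 within its table). Mki67, the coat protein of mitotic chromosomes and a standard proliferation marker, stood at 91.3, 101.9, 102.0, 147, 199.6 and 147 CPM. Its duplicates were level and day 8 rose by 0.97 ± 0.25 (edgeR adjusted p = 0.0405, 0.97 within its table), and the day 10 value of 0.53 ± 0.25 did not pass (0.157). Smc4, a condensin subunit, stood at 175, 191, 210, 225, 258 and 166 CPM, also highest at day 8 (day 10: -0.27 ± 0.26, edgeR adjusted p = 0.461). Cdca3, a trigger of mitotic entry placed in no other group, stood at 123, 136, 114, 149.9, 188 and 109.5 CPM and was not called at day 10 (-0.19 ± 0.27, edgeR adjusted p = 0.63), with a sign that turned to 0.06 under library totals alone.

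Of the 38 members, 22 were highest at day 8 and 24 lowest at day 10 among the 6 libraries. No member was called for non-elongated against elongated organoids at day 6 or for day 7 against day 6. For non-elongated organoids this holds for edgeR with 0 members at an unadjusted p under 0.05, and for DESeq2. The same fit called 0 (0%) of all genes, with 1137 at an unadjusted p under 0.05, while DESeq2 called 126. The members ranged from -0.58 (Prc1) to 0.29 (Kif20a), and from -0.29 to 0.56 against replicate 1 of the same table. At day 7, 3.99% of all genes were called and the members ranged from -0.76 (Cdc20) to 0.71 (Kif4). These 2 had unadjusted p under 0.05 in edgeR, and DESeq2 called 0. A slope over day across the 5 elongated libraries called 6 members as falling (Kif20a, Cdk1, Cdc20, Aurka, Plk1 and Ccnb2), beside 12.3% of all genes, and none as rising (edgeR). Without replicate 1 the slope called 4 as falling, where 5.88% of all genes fell, and without replicate 2 it called 1, where 1.99% did. The last count is near the share of all genes.

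Within the neural progenitors some members rose and none fell. Against elongated day 6, 5 members rose at day 10 (Prc1, Top2a, Racgap1, Kif4 and Mki67) and none fell (edgeR, FDR under 0.05), where 8.85% of the 15789 genes tested rose. At day 8, 4 rose (Prc1, Kif4, Top2a and Mki67) and none fell, where 4.76% of genes rose. Against replicate 2 of their table these 4 lay between 1.01 and 1.09. Both counts are not far from the share of all genes. Progenitors were not defined alike in the day 6 duplicates, which give both the baseline and the spread. The part of this difference in the calls was not tested. The 5 members called at day 10 and the 4 at day 8 had the same sign against each duplicate. The member medians were 0.31 at day 8 and 0.09 at day 10, beside -0.02 and -0.03 over all genes. In progenitors Prc1 stood at 70.7, 80.5, 107, 133, 228 and 244 CPM. Its log2 fold change at day 10 was 1.38 ± 0.28 (edgeR adjusted p = 0.0151, 1.19 within its table). Top2a stood at 253.5, 272, 359.7, 408, 726 and 691.5 CPM, with days 8 and 10 above the other libraries (day 10: 1.13 ± 0.27, edgeR adjusted p = 0.0268, 0.94 within its table). Mki67 had 99.8, 109, 99.2, 143.5, 208.6 and 209.4 CPM, and its day 10 log2 fold change was 1.01 ± 0.25 (edgeR adjusted p = 0.0321, 1.08 within its table). Racgap1 rose by 1.08 ± 0.25 (edgeR adjusted p = 0.0259, 1.12 within its table) and Kif4 by 1.02 ± 0.29 (0.0474, 0.82 within its table).

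The genes that fell in the whole organoid were not called in progenitors by edgeR. Cdk1 there stood at 303.5, 281, 212.5, 159, 169.9 and 135 CPM. It was lowest at day 10, at -0.87 ± 0.29 (edgeR adjusted p = 0.0794). Kif20a stood at 74.3, 48.6, 73.6, 39.4, 36.6 and 28.9 CPM (-1.08 ± 0.34, edgeR adjusted p = 0.0646), and Cdc20 had -0.95 ± 0.32 (0.0762). DESeq2 called these 3 as falling beside the same count of 5 rising, where 8.47% of all genes fell and 7.38% rose. The count of 3 falling members in 38 is near the share of all genes. The difference between all cells and progenitors was not tested, since one is part of the other. In the non-elongated library and at day 7 no member was called in progenitors by edgeR, with 0 and 2 at an unadjusted p under 0.05, nor by DESeq2. Of all genes 0% and 2.5% were called there. Over the 5 elongated libraries 4 members rose with day (Prc1, Racgap1, Mki67 and Nusap1, beside 7.72% of all genes), and 0 were called without replicate 1 or without replicate 2, where the fit called 0 and 5 genes of all.

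**Figure D2:**
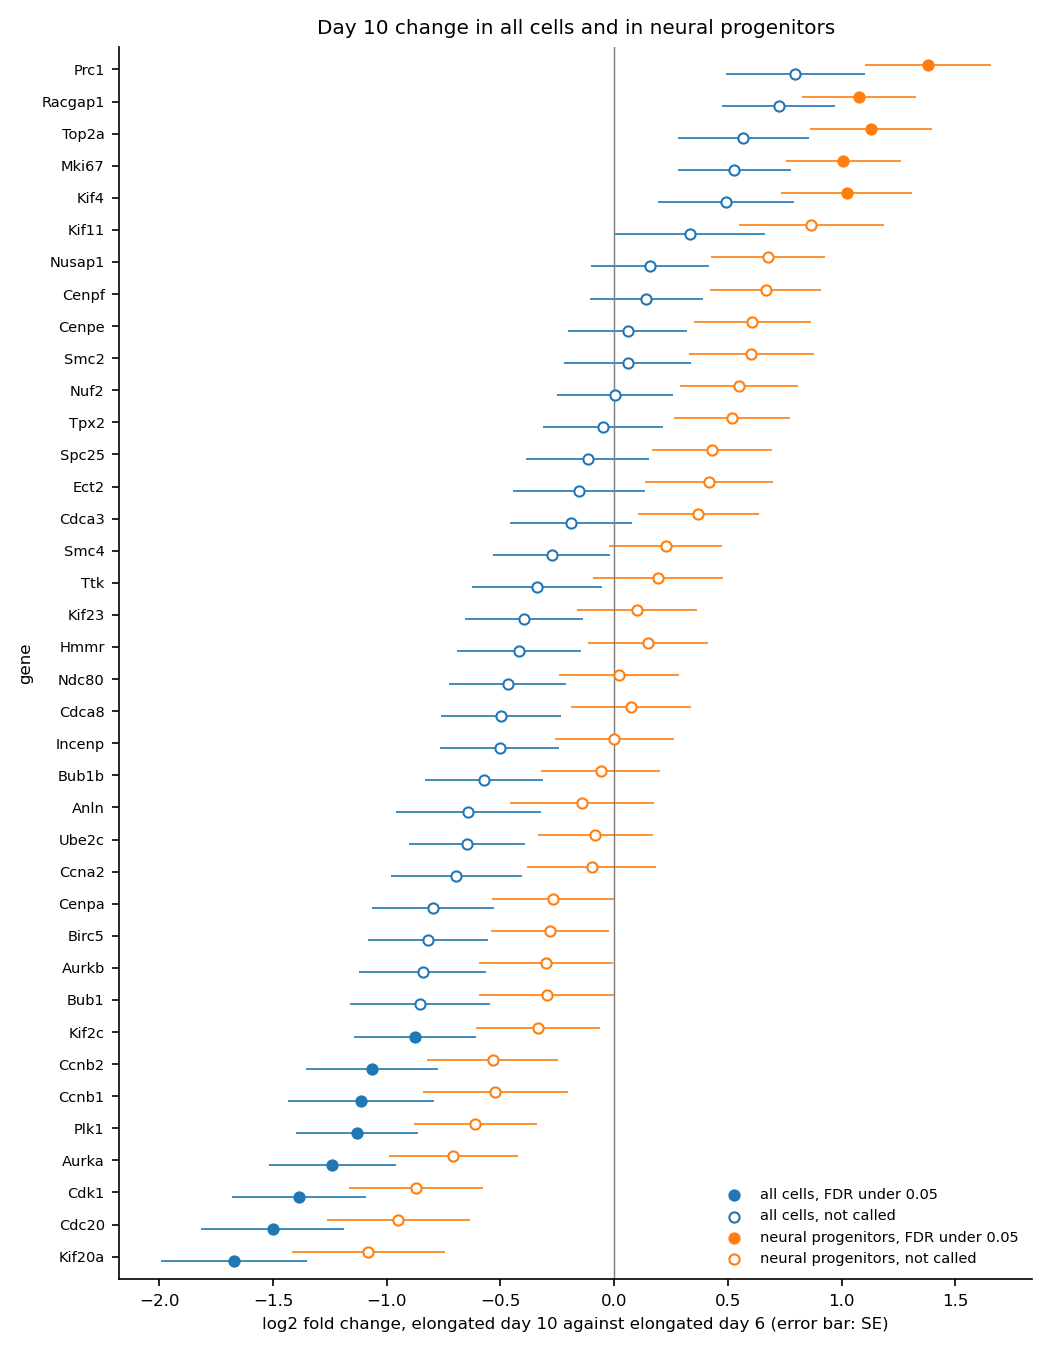
Log2 fold change of each of the 38 genes at elongated day 10 against elongated day 6 (horizontal axis) in all cells (blue) and in neural progenitors (orange), with the SE of the fit as bars, where filled points have an FDR under 0.05. The order runs from Kif20a (-1.67 in all cells) to Prc1 (0.80), and each gene lies further to the right in progenitors.

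The progenitor classes at day 10 include cells that hold few of these RNAs. Neuron markers moved with them: 9 of 10 neuron markers rose in progenitors at day 10, and the mean of their summed UMIs per 5000 went from about 1.01 in both day 6 duplicates to 5.86. Without the dorsal progenitor classes (dP1 and dP2/3), a choice made after these values were seen, 9 members rose at day 10 and none fell, with a median of 0.44, where 7.68% of all genes rose and 7.27% fell. The additional 4 were Kif11 (1.25), Nusap1 (1.06), Cenpf (1.04) and Cenpe (0.96). Without the class the authors call proliferative neural progenitor, 2 members rose (Prc1 at 1.20 and Racgap1 at 0.93) and 2 fell (Kif20a at -1.22 and Cdk1 at -1.07), with a median of -0.04, where 8.77% of all genes rose and 8.14% fell, so that these counts are at or under the share of all genes. The calls of Top2a, Mki67 and Kif4 were lost there, with edgeR adjusted p of 0.052, 0.0582 and 0.0786, and that of Kif4 also without a filter on low counts (0.0557). The opposite sign of Prc1 and Kif20a was present in both of these versions. For the slope over day, the fit without the proliferative class called 2 members as rising and 2 as falling (edgeR). Of all genes 7.29% rose and 9.78% fell in that slope.

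Counted cell by cell, most cells until day 7 held at least 10 UMIs of the module and a minority did at day 10. Each cell was thinned to 5000 UMIs and its UMIs of the 38 genes were summed. A cell with 10 or more was counted as high, which is a range and not a cell type. High cells made up 88.0% of the non-elongated library and 85.6% and 83.9% of the elongated day 6 duplicates. The share was 89.4% at day 7, 74.7% (95% exact interval 73.2 to 76.2) at day 8 and 37.5% (35.9 to 39.1) at day 10. These intervals cover counting error only, and with 1 library per later day there is no test. Between 4.49% (day 10) and 21.9% (day 6 replicate 2) of cells held 8 to 12 UMIs, near the limit. The median sum was 18, 18, 17, 20, 23 and 3 UMIs in library order, and the 90th percentile 36, 40, 39, 43, 61 and 58. The median cell thus dropped at day 10 while the 90th percentile stayed above its day 6 level. Cells with no UMI of any of the 38 genes went from 0.135% or less at day 6 to 0.234%, 3.72% and 20.2% at days 7, 8 and 10. With a limit of 20 UMIs the order of libraries differed: the share was 43.96% to 46.3% at day 6, 52.1% at day 7, 54.7% at day 8 and 29.7% at day 10.

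**Figure D3:**
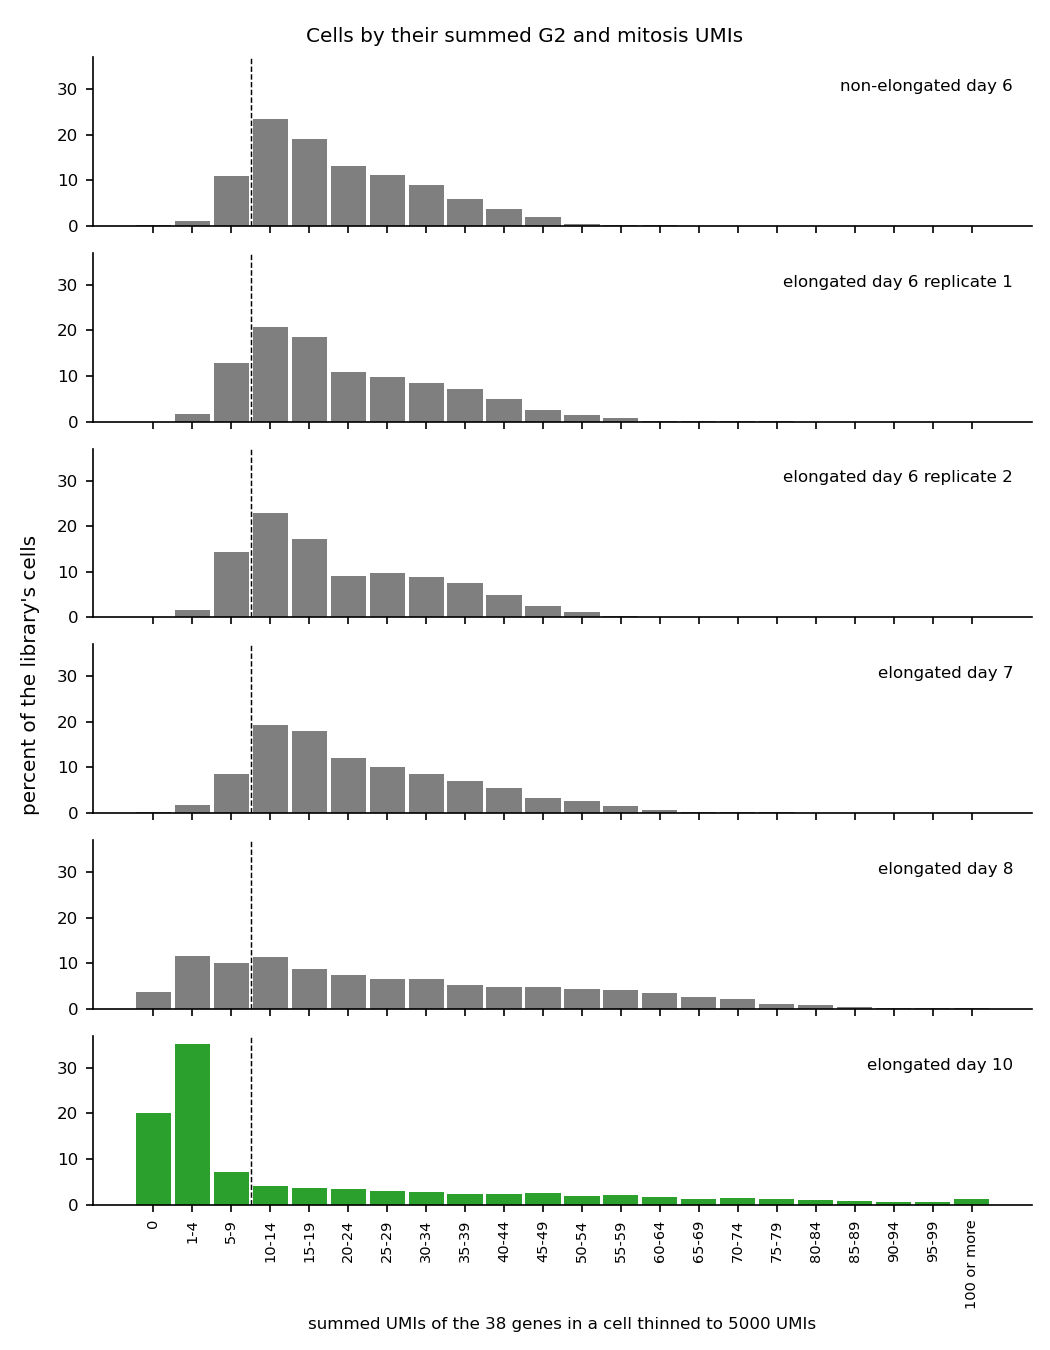
Percent of each library's cells (vertical axis) by the summed UMIs of the 38 genes in a cell thinned to 5000 UMIs (horizontal axis), 1 panel per library, with the limit of 10 UMIs as a dashed line. At days 6 and 7 few cells lie left of the line, and at day 10 only 37.5% of cells lie right of it, while the tail reaches past 100 UMIs.

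High cells were spread unevenly over the classes. The proliferative neural progenitors held the most: their median sum was 40.5 UMIs at day 7, 51 at day 8 and 61 at day 10, and 96.2% to 97.6% of them were high. Since the authors clustered these cells on their expression, that class is described and not tested. Mid/hindbrain cells were high in 83.9% of cells at day 6 (replicate 2), 90.7% at day 7, 87.0% at day 8 and 74.8% (72.0 to 77.4) at day 10. Spinal cord cells went from 88.5% to 96.5%, 88.5% and 66.2% (59.7 to 72.3). Both regional classes had their lowest share at day 10. The intervals cover the counting of cells in 1 library and not the spread between libraries, so the days were not tested. In the dP2/3 class 53.7% (41.1 to 66.0) were high at day 7, 23.6% (18.9 to 28.9) at day 8 and 12.2% (9.12 to 15.8) at day 10, and in the dP1 class 6.67% (3.999 to 10.3) at day 10. The pre-migratory cranial crest class had 59.6% (45.1 to 73.0) at day 6 in replicate 2, with 52 cells, then 88.7% at day 7, 81.6% at day 8 and 50.2% (43.9 to 56.5) at day 10. Its course was low, high and low again, and the intervals of day 6 and day 10 overlap. Migratory cranial crest had 67.9% (54.0 to 79.7) at day 10. At day 6 epiblast, surface ectoderm and mesenchyme classes of at least 50 cells lay between 75.3% and 90.9%, around the share of the progenitors.

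**Figure D4:**
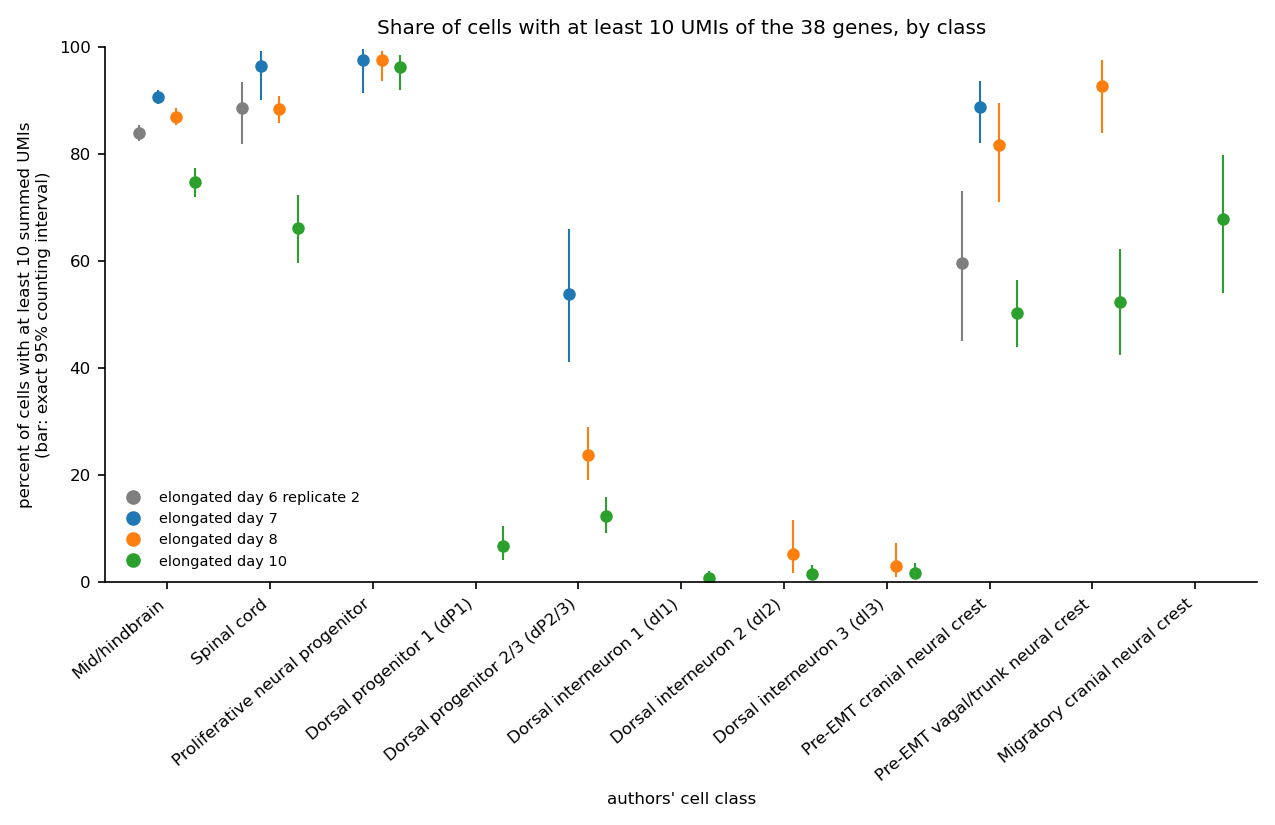
Share of cells with at least 10 UMIs of the 38 genes after thinning to 5000 UMIs (vertical axis) for the authors' classes of at least 50 cells (horizontal axis) in the 4 libraries of the later table, with exact 95% counting intervals. Mid/hindbrain cells stay at 74.8% at day 10, while dP2/3 cells go from 53.7% at day 7 to 12.2% at day 10 and the neuron classes lie near 0.

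Neurons gave the background. Of them 3.31% were high at day 8 and 1.19% at day 10, and the median member had a UMI in 1.11% of neurons at day 10 (5000 UMIs per cell). Median depths before thinning were 19948.5 UMIs in neurons and 22492 in progenitors at day 10. Across the members, the CPM in neurons was a median of 3.26% of that in progenitors of the same library. For Cdk1 it was 2.38 against 144 CPM (1.66%), and for Top2a 14.02 against 738 (1.90%). Racgap1, chosen after its values were seen, stood apart. It had 77.5 CPM in neurons and 166 in progenitors at day 10 (46.8%). A Racgap1 UMI was found in 25.6% (23.1 to 28.2) of neurons and 41.5% (39.4 to 43.6) of progenitors at day 10. Without thinning these shares were 52.3% and 68.0%. Racgap1 and Top2a thus had different ratios in neurons and progenitors of 1 library. The condensin genes came next at day 10: Smc2 had 40.2 CPM in neurons (13.1% of progenitors) and a UMI in 15.7% (13.7 to 17.9) of them, and Smc4 19.7 CPM (7.79%) and 8.42% (6.89 to 10.2). At day 8, over the neuron and progenitor classes of at least 50 cells, Racgap1 was again first and Smc2 second. Cenpa, Ccnb2 and Cdc20 lay above Smc4 there. Racgap1 is best known as the GTPase activating subunit of centralspindlin.

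The members' levels in high progenitors differed between the libraries. For each gene, progenitors with at least 10 UMIs of the other 37 were taken, and the gene's mean UMIs per 5000 were read in them. At day 10, 32 of 38 genes lay above both day 6 duplicates, 6 lay between them and 0 below. The same reading was not made for all genes, so these counts have no share of all genes beside them. The ratio of day 10 to the mean of the duplicates had a median of 1.67 and was 2 or more for 15 genes. Prc1 went from 0.386 and 0.511 UMIs in the duplicates to 1.21 at day 8 and 1.78 at day 10 (ratio 3.98). Top2a went from 1.33 and 1.67 to 4.06 and 5.33 UMIs (ratio 3.55), and Kif4 and Racgap1 had ratios of 3.40 and 3.28. These are midzone and chromosome structure genes, but the ratios within these roles were wide. They ran from 0.828 (Kif20a) to 3.98 (Prc1) for midzone and cytokinesis, and from 1.77 (Smc4) to 3.55 (Top2a) for chromosome structure. Kif20a (0.828), Cdc20 (0.831), Cdk1 (0.931), Plk1 (1.02), Aurka (1.06) and Ccnb1 (1.10) had the lowest ratios, and these are the 6 that lay between the duplicates. The cells were chosen by the module itself, and high cells made up 85.3% and 84.2% of progenitors in the duplicates and 54.8% at day 10. A smaller portion of progenitors was thus read at day 10. The part of this selection in the ratios was not tested, and they are a description of the chosen cells. Day 10 has 1 library, and the ratios have no test.

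**Figure D5:**
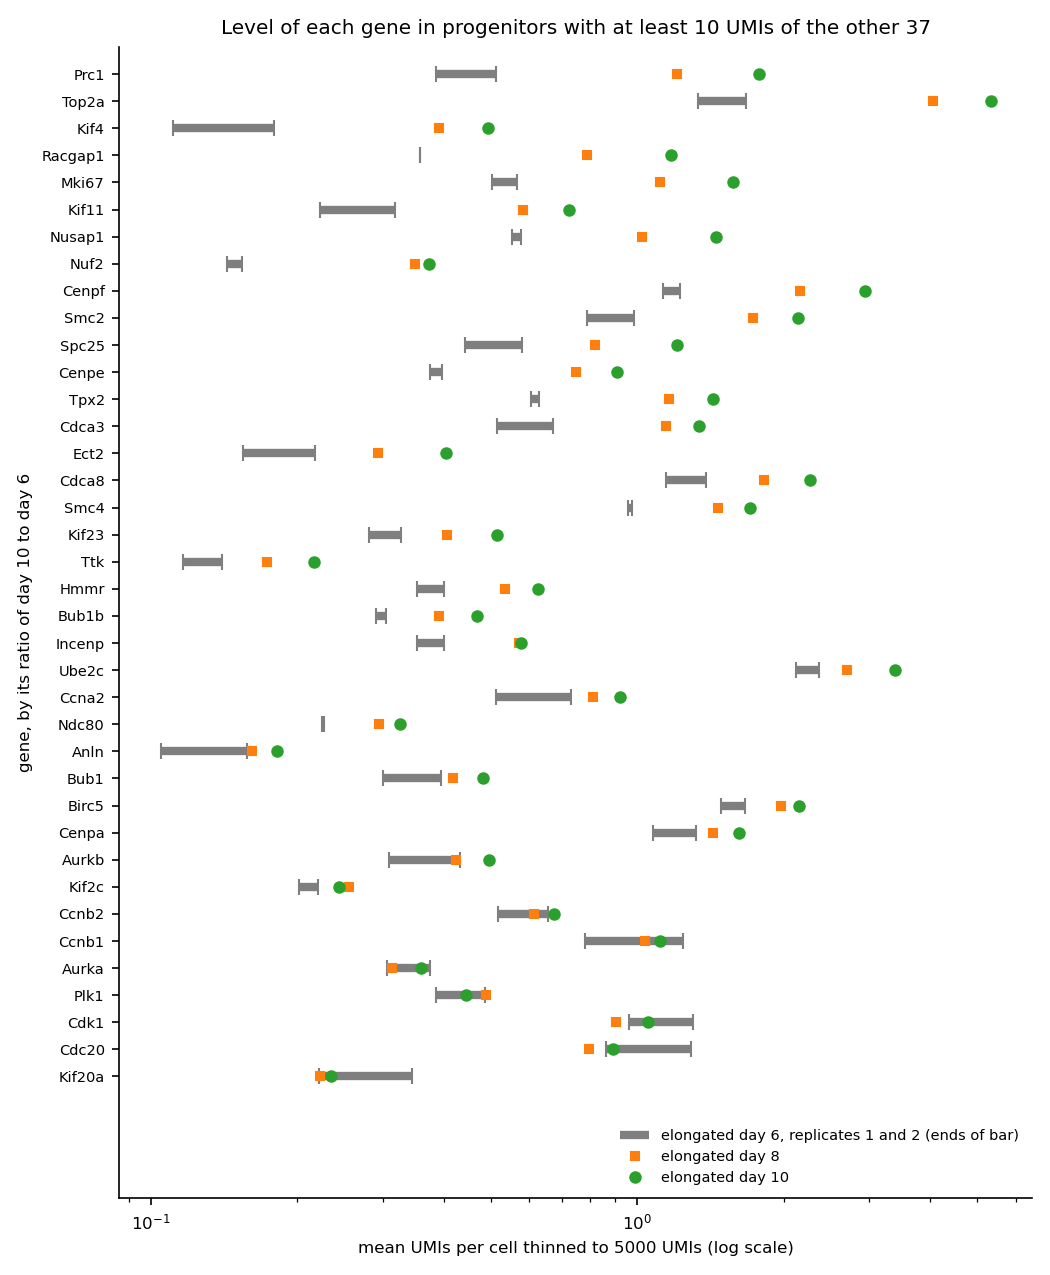
Mean UMIs of each gene (horizontal axis, log scale) in neural progenitors that hold at least 10 UMIs of the other 37 genes, each cell thinned to 5000 UMIs, where the grey bar spans the elongated day 6 duplicates. Prc1 at the top reaches 1.78 UMIs at day 10 from 0.386 and 0.511, while Cdk1 at 1.05 stays within its day 6 bar.

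The genes also differed in how far their UMIs were concentrated in the cells richest in the rest of the module. In each library, progenitors were ranked by the other 37 members, and the share of a gene's UMIs held by the top 10% of cells was taken. Even spreading would give 10%. The median over the 6 libraries was highest for Nusap1 (29.4%), Prc1 (27.3%) and Ube2c (27.2%) and lowest for Ccnb2 (13.3%), Birc5 (14.2%) and Nuf2 (14.4%). These are medians, and libraries differed. Ccnb2 ran from 12.1% to 13.3% in the libraries up to day 8 and stood at 23.5% at day 10, and Nusap1 ran from 23.5% to 40.8% and was not the highest gene in every library. The Spearman correlation with the other 37 members gave another order at day 10. Birc5 had 0.757 and Nusap1 0.742 there, while Ccnb2 had 0.418 and Nuf2 0.395. In every other library Birc5 lay below Nusap1 by this measure. Genes share depth and cells here, so both rankings are a description.

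Of other genes of the same phase, taken from a separate list of 52, 37 had a lower value at day 10 in all cells. There 2 of 52 rose and 11 fell (edgeR), with a median of -0.38, where 14.1% of all genes rose and 12.3% fell. In progenitors 3 rose and 0 fell, where 8.85% of all genes rose and 8.24% fell. Both counts of rises are under the share of all genes. The lowest were Ccnf, a cyclin that targets proteins for degradation (-1.48 ± 0.29, edgeR adjusted p = 0.00985), and Wee1, the kinase that holds Cdk1 inactive (-1.47 ± 0.28, 0.00942). The highest were Cdc25b, the phosphatase that activates Cdk1, and Pbk, a mitotic kinase. Cdc25b stood at 10.5, 14.5, 7.52, 24.0, 38.3 and 34.3 CPM (1.64 ± 0.40, edgeR adjusted p = 0.0228), and Pbk had 0.93 ± 0.25 (0.0291). So Cdk1, its inhibitor Wee1 and its activator Cdc25b did not share a direction in the whole organoid.

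S phase genes declined more widely than the mitotic members. Of 38, 26 fell and 0 rose at day 10 in all cells (edgeR), with a median of -1.23, where 12.3% of all genes fell and 14.1% rose. In progenitors 9 fell and 1 rose, where 8.24% of all genes fell and 8.85% rose. Ung, a uracil DNA glycosylase, had -2.77 ± 0.35 (edgeR adjusted p = 0.00168) and Pold1, a replicative polymerase, -2.20 ± 0.30 (0.0022). At the other end Clspn, a replication checkpoint adaptor, had -0.04 ± 0.29 (0.935) and E2f1, a cell cycle transcription factor, 0.80 ± 0.32 (0.107). The difference between the lists was not tested. In high progenitors the mean S phase sum was 19.0 UMIs per 5000 in both day 6 duplicates and 17.7 at day 10, and in the other progenitors 22.3 and 22.0 at day 6 and 9.89 at day 10. At day 6, progenitors low in the mitotic genes thus held more S phase RNA than the high ones, and at day 10 less. Their median depth before thinning was 18959.5 UMIs at day 10 against 27141 in the high ones, and its part was not tested. Those low progenitors held a mean of 8.27 neuron marker UMIs at day 10, beside 3.87 in the high ones.

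A list of 19 genes was taken for cell cycle exit, but it also holds Cdk6 and the cyclin D genes, which act against exit. Of the 19, 8 rose and 5 fell at day 10 in all cells (edgeR), where 14.1% of all genes rose and 12.3% fell. These counts thus mix opposite roles. Gadd45g, a growth arrest gene of newborn neurons, stood at 12.4, 8.31, 3.67, 46.0, 70.8 and 152.5 CPM (4.68 ± 0.45, edgeR adjusted p = 0.000566). It rose already from day 7. Cdkn2c, an inhibitor of the G1 kinases, had 2.26 ± 0.44 (0.00948). Cdk6, one of those kinases, had -2.65 ± 0.42 (0.00452), and its partner Ccnd1, cyclin D1, -1.61 ± 0.29 (0.00688). The day 8 and day 10 comparisons share the same day 6 libraries and are given side by side for that reason.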

How the data were processed

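Single-cell libraries were made with the 10x Genomics 3′ kit v3, per the labels' protocols, and the submitters' processing notes name Cell Ranger 3.1 and mm10. Doublet removal and the clustering method are not given in the sources used here, and no doublet caller was run. The authors deposited UMI counts per gene and cell in 2 tables, with counts of UMIs and genes and the mitochondrial percent per cell, per the file headers; deposited library and class names are other text. In the earlier table libraries are named NENT and SENT, and the initials were taken to stand for the non-elongated and the elongated library. No per-sample column was left unused (0). Counts were summed per library over all cells and over the authors' progenitor classes and tested in R 4.3.3 with edgeR 4.0.16 (TMM, filterByExpr with a minimum count of 10, quasi-likelihood fit, 5 group means, 1 residual degree of freedom from the day 6 duplicates; the slope had 3) and Benjamini-Hochberg adjustment at 0.05. DESeq2 1.42.0 was an alternative. Each SE was obtained by dividing the absolute log2 value by the root of its F statistic. Values within a table, against 1 duplicate, are log2 CPM differences with a prior count of 2 and no test. CPM per class has no TMM factor. A count of 0 of n cells allows a share of up to 3 of n.

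Members, lists and tests were chosen with earlier results of these data known. Values in every library are printed for Cdk1, Ccnb1, Plk1, Cdc20, Top2a and Mki67 and for the member with the lowest and highest day 10 log2 fold change in each role; of each other cell cycle list, the 2 lowest and 2 highest. The marker lists are given by counts, which departs from that rule. Promoters are from RefSeq (GRCm38.p6) and 6 members have no entry there. Top2a has a small annotated gene on its own strand within its exons in GENCODE M21, and the counting rule for such reads is not given in the sources used here.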

Additional observations from a re-analysis of the deposited data

How the results depend on the processing

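Counts of called members that differed by more than 1.5 times from the main count were these. In all cells at day 10, DESeq2 called 13 against 8, where it called 4186 of 17296 genes. At day 8, a minimum count of 100 left 0 of 4. For the slope, DESeq2 called 13 against 6, where it called 5965 of 17296 genes, a share near that of the 38 members. Leaving out a day 6 replicate gave 1 to 4 for the slope. In progenitors at day 10, DESeq2 called 8 against 5, where it called 2740 of 17290 genes. The fit without the dorsal progenitor classes called 9 against 5, where it called 2345 of 15687 genes, with a median of 0.44 against 0.09. For the progenitor slope DESeq2 called 10 against 4, where it called 4964 of 17286 genes, again a share near that of the 38 members. The fit without the dorsal progenitor classes called 11, where it called 2287 of 15857 genes, and leaving out either replicate gave 0. The member median at day 10 in all cells was -0.19 under library totals alone against -0.44. The day 10 value of Cdca3 turned to 0.062 under library totals alone; it was the 1 reversal among the gene values recomputed. Other counts and medians stayed within 1.5 times or within the spread of the duplicates. The added fits (without dorsal progenitors, without the proliferative class) were chosen after seeing the data.

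Shares of high cells in library order (non-elongated, day 6 replicates 1 and 2, days 7, 8 and 10) were 98.8%, 98.4%, 98.2%, 98.01%, 84.7% and 44.6% with a limit of 5 UMIs, and 45.6%, 46.3%, 43.96%, 52.1%, 54.7% and 29.7% with a limit of 20. At 10000 UMIs per cell and a limit of 20, the day 6 shares were 90.3%, 87.5% and 86.1%. No paired analysis was possible because only elongated day 6 has more than 1 library. Leaving out a day 6 replicate leaves no residual degree of freedom for the contrasts, which then are values with no test. Day 10 cells were the shallowest by their median before thinning. Summed over cells, the day 10 library held 89832377 UMIs, more than the non-elongated library (74072752) and replicate 1 (77027668).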
